A study of Mus musculus with 12 samples.

Results

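Glucose transporters and the enzymes of glycolysis, the pentose phosphate pathway and the tricarboxylic acid (TCA) cycle were described in M1-activated bone marrow-derived macrophages (BM-Mɸs), together with the citrate and lactate carriers, the itaconate enzyme Acod1 and the regulator Hif1a. The 50 members were chosen by gene symbol from what the genes are known to do. They correspond to 51 gene identifiers of the 22243 genes in the table, as the symbol Aldoa stands on a second identifier (ENSMUSG00000114515) that was listed at 0 in all 12 libraries. TPM is a level corrected for transcript length and scaled to the same total in every library. The table holds only isoforms that APPRIS marks as principal, between 59.0% and 74.7% of the TPM of a library. A level given here leaves out the other isoforms of a gene. With a filter on the mean over the 12 libraries of 1 TPM or more, 49 identifiers were tested among 8780 genes, and Suclg2 and the second Aldoa identifier were not. The members held between 1.44% and 1.83% of the TPM of a library.

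The cultures came from 6 ErbB4myeKO mice, in which Cre under LysM removes a floxed part of Erbb4 from myeloid cells, and from 6 ErbB4FF littermates that carry the floxed allele without Cre, on a C57Bl/6 background. Each of 6 litters gave 1 mouse of each genotype, and a sample is called here by its labelled genotype and its litter. The litter is the number in the sample title. The labels give a batch from A to F, so litter and batch cannot be told apart. All 12 cultures were grown from bone marrow in medium with M-CSF, primed over 16 h with 100 U/ml IFN-γ and stimulated over 6 h with 100 ng/ml LPS, so the data hold no resting macrophages and no level can be set against one. The question was whether M1-activated BM-Mɸs without ErbB4, a receptor tyrosine kinase, express these genes at other levels than those of their littermates. Ages and sexes are not on the labels. Erbb4 was 0.583 ± 0.242 TPM (SD, n = 6) in libraries labelled ErbB4myeKO and 0.450 ± 0.132 TPM (SD, n = 6) in those labelled ErbB4FF, under the 1 TPM filter, and this value covers the whole transcript, so it does not check the deletion.

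Macrophages given interferon and LPS take up much glucose, run glycolysis to lactate in the presence of oxygen, and send glucose into the pentose phosphate pathway, which makes NADPH. Their TCA cycle is known to be slowed at isocitrate and succinate, and Acod1 turns aconitate drawn from the cycle into itaconate. The transcription factor subunit HIF-1α, made from Hif1a, is stabilised in such cells and binds a short core, ACGTG or GCGTG, upstream of many glycolytic genes.

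The upstream letters are shown for 4 members that hold the ACGTG core, Ldha, Pgk1, Hk2 and Hif1a. They were picked after their levels were seen, and the part of the core in those levels was not tested. The letters are the 250 bases before the RefSeq transcription start, 5′ to 3′ on the strand of the gene, from RefSeq on GRCm38.p6, with ACGTG and GCGTG on either strand in capitals. A palindromic CACGTG holds ACGTG on both strands and counts once for each. The stretch of Ldha (chr7:46845554-46845803, plus strand) holds 5 ACGTG, that of Pgk1 (chrX:106186850-106187099, plus strand) 2, that of Hk2 (chr6:82774455-82774704, minus strand) 2 and that of Hif1a (chr12:73907617-73907866, plus strand) 3.
Ldha: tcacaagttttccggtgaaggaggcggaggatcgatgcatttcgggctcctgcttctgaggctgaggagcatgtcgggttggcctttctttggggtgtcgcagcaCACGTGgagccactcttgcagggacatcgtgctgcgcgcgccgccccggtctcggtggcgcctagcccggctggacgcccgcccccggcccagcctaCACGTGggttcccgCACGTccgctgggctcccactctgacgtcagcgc
Pgk1: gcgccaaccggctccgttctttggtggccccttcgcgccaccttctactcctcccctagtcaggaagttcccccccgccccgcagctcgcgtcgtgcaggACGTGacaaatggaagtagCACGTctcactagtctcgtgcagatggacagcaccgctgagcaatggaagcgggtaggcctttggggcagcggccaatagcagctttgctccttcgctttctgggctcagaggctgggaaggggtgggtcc
Hk2: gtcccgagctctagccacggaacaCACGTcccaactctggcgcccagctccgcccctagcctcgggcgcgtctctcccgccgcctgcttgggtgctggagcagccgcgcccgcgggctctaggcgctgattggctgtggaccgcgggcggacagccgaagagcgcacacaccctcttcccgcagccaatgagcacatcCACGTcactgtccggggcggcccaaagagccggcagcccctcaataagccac
Hif1a: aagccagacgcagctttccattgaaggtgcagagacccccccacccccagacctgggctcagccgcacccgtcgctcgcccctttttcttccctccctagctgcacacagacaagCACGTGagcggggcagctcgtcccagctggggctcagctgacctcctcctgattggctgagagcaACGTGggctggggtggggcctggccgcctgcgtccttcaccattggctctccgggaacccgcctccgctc
In the window from 250 bases before to 50 bases after the start, ACGTG on either strand was in 22 of 48 members (45.8%) that the promoter table holds and in 19.6% of all 32851 promoters. Among the 23 members of glucose transport, glycolysis and lactate the share was 56.5%, and among the other 25 members 36.0%. GCGTG was in 66.7% of the members and 32.4% of all promoters, and either core in 85.4% and 43.8%. Between the 23 and the other 25, GCGTG was in 60.9% and 72.0%, and either core in 87.0% and 84.0%. For Hk1 and Acly the start used lay 17941 and 4402 bases from that of the highest transcript. A match is a description of letters, not of binding, and Idh3a and Suclg2 are not among the 48.

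Acod1 stood highest, and members of lower and upper glycolysis and Ldha came next. Acod1 had a mean of 4585 TPM in ErbB4FF, where it ranked 13 among all genes. It was followed by Gapdh with 1502 TPM, Aldoa with 1477 TPM, Pkm with 1248 TPM, Ldha with 1157 TPM and Pgk1 with 1011 TPM, each level as a mean of 6 ErbB4FF libraries on the TPM scale. From Gapdh to Pgk1 each gene differed from the next in this order by less than the larger of their SDs over ErbB4FF libraries, whereas Acod1 lay far above Gapdh. The 5 enzymes from Gapdh to Pkm summed to 5157 TPM, and the 13 TCA cycle members that passed the filter, with Suclg2, summed to 418 TPM. Idh2, the mitochondrial NADP-dependent isocitrate dehydrogenase, and Fh1, the fumarase, lay at 7.36 and 4.95 TPM, and Suclg2, a succinyl-CoA ligase subunit, was listed at 0 in most libraries with a highest value of 0.216 TPM. These levels and sums cover principal isoforms alone.

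**Figure D1:**
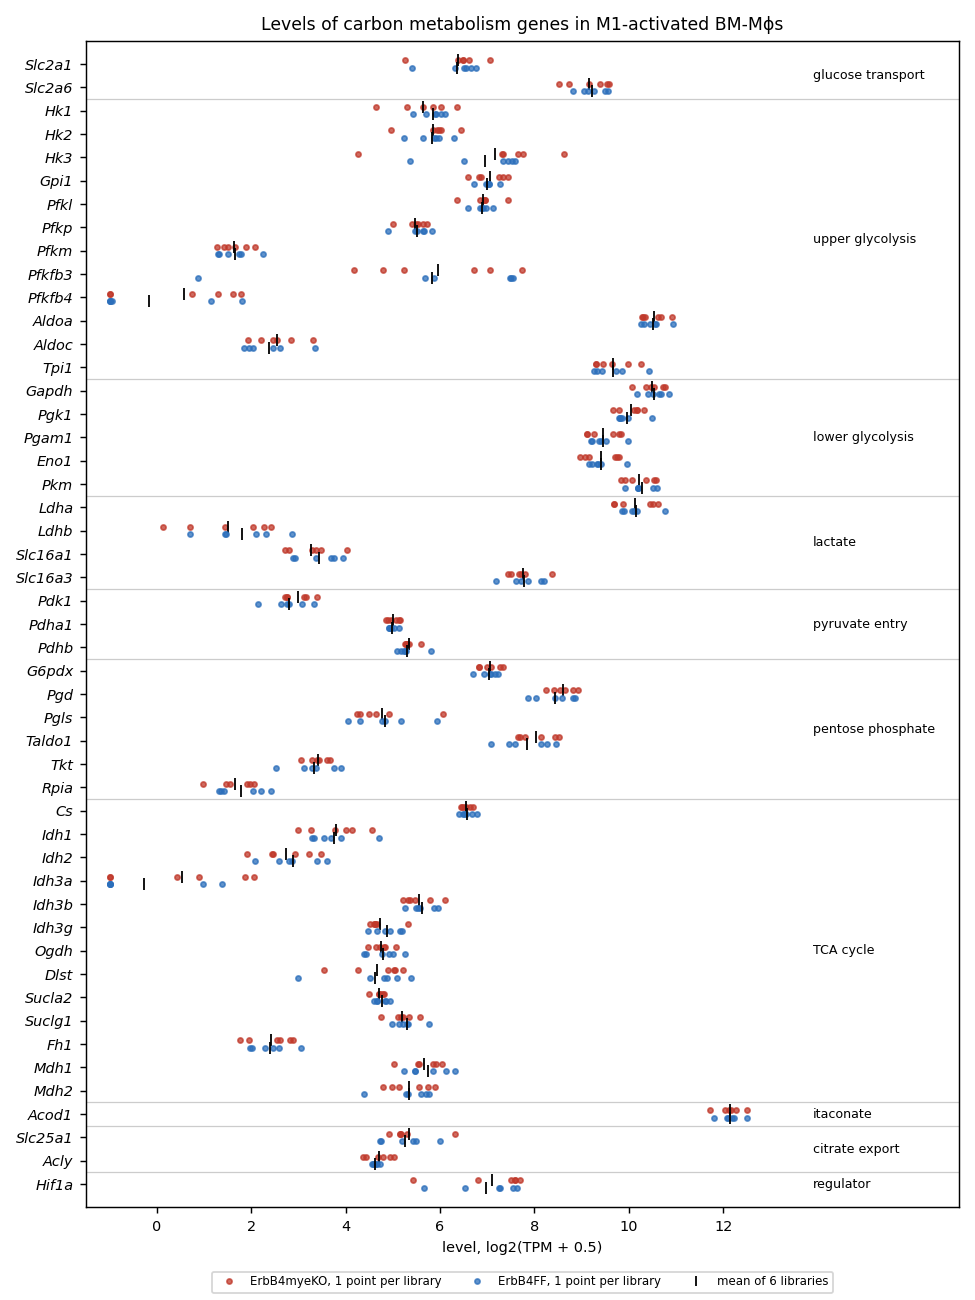
Level of each of the 49 tested members on the log2(TPM + 0.5) scale, with 1 point for each of 6 ErbB4myeKO (red) and 6 ErbB4FF (blue) libraries, a black tick at the mean of each group, and grey lines between roles. The red and blue points of every member overlap, and Acod1 lies to the right of all others at 4557 and 4585 TPM.

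Genotype was tested with limma on log2(TPM + 0.5), blocked by litter, and p-values were adjusted over all genes by Benjamini and Hochberg. At an adjusted p under 0.05, 0 of 49 members and 0% of the 8780 genes were called, and the smallest adjusted p was 0.603. At an unadjusted p under 0.05, 1 member was higher in ErbB4myeKO and 0 were lower, beside 3.83% and 4.38% of all genes (721 genes or 8.21% in either direction). The median log2 ratio of ErbB4myeKO to ErbB4FF was 0.012 over the members and -0.001 over all genes tested, and with 1 litter left out the members' median lay between -0.043 and 0.034. In 0 members did the ranges of the groups not overlap, beside 0.0342% of all genes in the upward and 0.0114% in the downward direction. The 95% confidence interval of the log2 ratio lay within ±0.5 for 39 of the 49 members. It reached further for Hk1, Hk3, Pfkfb3, Pfkfb4, Aldoc, Ldhb, Pdk1, Pgls, Idh3a and Dlst, so differences of that size cannot be told from 0 for them at this spread.

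Acod1 (ENSMUSG00000022126, chromosome 14, 103046977 to 103056573 of GRCm38 in GENCODE M21) encodes the mitochondrial enzyme that makes itaconate. From litter 1 to 6 it was 4594, 4424, 5803, 4967, 3369 and 4186 TPM in ErbB4myeKO and 4621, 4377, 5828, 4787, 3561 and 4335 TPM in ErbB4FF. Littermates lay close together, litter 3 was highest and litter 5 lowest in both groups, and the ranges overlapped almost fully. The log2 ratio was -0.01 (95% confidence interval -0.13 to 0.10, limma adjusted p = 0.945), with an SD of 0.05 over the 6 litters. Of 92 genes whose mean reached 1000 TPM, 0 had a smaller SD of the within-litter ratio. Acod1 also differed between litters (adjusted p = 0.00522, limma F test of litter), from -0.46 in litter 5 to 0.44 in litter 3 on the log2 scale against the mean of the other litters. Without litter 5 it did not pass that test.

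Glucose enters macrophages through transporters such as GLUT1, the product of Slc2a1. Slc2a6, a transporter of the lysosomal membrane known to be induced by inflammatory activation, stood above it. Slc2a6 (ENSMUSG00000036067, chromosome 2, 27021363 to 27027998) was 572, 765, 427, 746, 674 and 364 TPM in ErbB4myeKO and 532, 758, 614, 725, 561 and 448 TPM in ErbB4FF, in the order of the litters. The groups overlapped, and the log2 ratio was -0.07 with a standard error of 0.11 (limma adjusted p = 0.859). Within a library the ratio of Slc2a6 to Slc2a1 averaged 7.89 in ErbB4myeKO and 7.65 in ErbB4FF. Slc2a1 was between 37.7 and 134 TPM in ErbB4myeKO (median 88.9) and between 41.8 and 107 TPM in ErbB4FF (median 92.1), with the lowest value of each group in litter 5.

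The upper steps of glycolysis trap glucose as its phosphate and split fructose bisphosphate into triose phosphates. Of 12 tested members, 0 passed the test for genotype in either direction, and their log2 ratios lay between -0.21 for Hk1, a hexokinase, and 0.74 for Pfkfb4. Aldoa, the aldolase (ENSMUSG00000030695, chromosome 7, 126795234 to 126800751), was the highest of them, with 1248, 1573, 1297, 1259, 1915 and 1652 TPM in ErbB4myeKO and 1276, 1393, 1497, 1219, 1952 and 1525 TPM in ErbB4FF. Both groups were highest in litter 5 and they overlapped. Its log2 ratio was 0.01 with a standard error of 0.06 (limma adjusted p = 0.958). Of 3 hexokinases, Hk1 and Hk2 were at like levels in ErbB4FF and Hk3 stood above them, with 57.7 ± 9.28 TPM for Hk1, 57.5 ± 13.7 TPM for Hk2 and 140 ± 60.3 TPM for Hk3 (SD, n = 6). Pfkl, the liver-type phosphofructokinase, led Pfkp and Pfkm, with 118, 45.8 and 2.72 TPM. Pfkfb4, which sets fructose 2,6-bisphosphate, was at or near 0 in 2 ErbB4myeKO and 4 ErbB4FF libraries, so its ratio of 0.74 rests on values around the filter.

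Pfkfb3, whose product makes the activator of phosphofructokinase, had the widest ratios among the members with a mean above 5 TPM. It was 37.4, 105, 27.1, 133, 17.5 and 213 TPM in ErbB4myeKO and 51.0, 180.5, 58.4, 178, 1.34 and 187 TPM in ErbB4FF. ErbB4myeKO was the lower of the pair in litters 1 to 4, with log2 ratios between -1.09 and -0.41, and the higher in litter 6 with 0.19 and in litter 5 with 3.29, where the ErbB4FF library held 1.34 TPM. The mean log2 ratio was 0.13 with a standard error of 0.54 (limma adjusted p = 0.948). Without litter 5 it was -0.51 with a standard error of 0.18 (limma adjusted p = 0.499), so 1 litter decided its direction.

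The lower part of glycolysis yields ATP and pyruvate. Its 5 members, Gapdh, Pgk1, Pgam1, Eno1 and Pkm, had log2 ratios between -0.06 and 0.08, and 0 of 5 passed the test for genotype. Gapdh, the triose phosphate dehydrogenase (ENSMUSG00000057666, chromosome 6, 125161715 to 125166467), was 1310.4, 1696, 1066, 1419, 1747 and 1474 TPM in ErbB4myeKO and 1157, 1451, 1629.8, 1349, 1834 and 1588 TPM in ErbB4FF. The groups overlapped, with a log2 ratio of -0.05 and a standard error of 0.11 (limma adjusted p = 0.891). The low value of ErbB4myeKO in litter 3 came from 1 of its 2 transcripts, ENSMUST00000073605, which held 32.1% of Gapdh there and between 49.1% and 63.9% in the other 11 libraries. Reads of several members are hard to place. Of the 31-base words of the main transcript, 92.1% for Gapdh, 77.2% for Eno1, 68.3% for Pgk1, 50.9% for Pkm and 42.1% for Pgam1 also occur in other genes, which for Eno1 was mostly Eno1b, annotated as protein coding, and for the other 4 mostly processed pseudogenes, so these levels carry that uncertainty. The same holds for Pdhb, Ldhb, Ldha, Gpi1, Aldoa and Taldo1, with shares between 25.2% and 41.9%.

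Pyruvate leaves as lactate through Ldha, a lactate dehydrogenase subunit, and the exporter Slc16a3. Ldha (ENSMUSG00000063229, chromosome 7, 46841475 to 46855627), whose upstream letters hold 5 ACGTG, was 823, 1461, 818, 934, 1578 and 1399 TPM in ErbB4myeKO and 955, 1146, 931, 1096, 1745 and 1072 TPM in ErbB4FF. The groups overlapped, and litter 5 was the highest in both. Its log2 ratio was -0.01 with a standard error of 0.11 (limma adjusted p = 0.986). All 4 lactate members had a log2 ratio below 0, down to -0.31 for Ldhb, and 0 of 4 passed. In ErbB4FF the linear ratio of Ldhb, the other subunit, to Ldha averaged 0.00306, and that of Slc16a1, the other carrier, to Slc16a3 averaged 0.0506.

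Pyruvate enters mitochondria to become acetyl-CoA. Pdhb, a subunit of pyruvate dehydrogenase (ENSMUSG00000021748, chromosome 14, 8165996 to 8173025), was 38.4, 38.9, 38.5, 37.6, 47.9 and 40.3 TPM in ErbB4myeKO and 38.5, 35.8, 33.7, 37.7, 55.2 and 37.3 TPM in ErbB4FF. The groups overlapped, each with its highest value in litter 5, and the log2 ratio was 0.03 with a standard error of 0.07 (limma adjusted p = 0.889). Pdha1, the catalytic subunit, and Pdk1, the inhibitory kinase, had log2 ratios of 0.03 and 0.20, and 0 of 3 members passed.

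Among the 6 members of the pentose phosphate pathway, the highest, Pgd and Taldo1, both lay on the higher side in ErbB4myeKO. Taldo1, the transaldolase of the non-oxidative branch (ENSMUSG00000025503, chromosome 7, 141392199 to 141402968), was 283, 199, 367, 221, 206 and 344 TPM in ErbB4myeKO and 283, 135, 353, 176, 192 and 306 TPM in ErbB4FF. ErbB4myeKO was the higher of every pair, by little in litter 1 and most in litter 2, while the ranges of the groups overlapped. The log2 ratio was 0.20 with a standard error of 0.08 (limma adjusted p = 0.603). An exact two-sided permutation test, in which genotypes were exchanged between littermates in all 64 ways, gave p = 0.0312, the smallest it can give. Taldo1 was the member past the unadjusted threshold and the 1 member higher in all 6 litters, beside 2.51% of all genes, while 0 members were lower in all 6, beside 2.31%. Pgd, 6-phosphogluconate dehydrogenase of the NADPH-making branch (ENSMUSG00000028961, chromosome 4, 149149991 to 149166771), was 373, 342, 488, 304, 398 and 452 TPM in ErbB4myeKO and 344, 231, 451, 259.9, 385 and 461 TPM in ErbB4FF. It was higher in ErbB4myeKO in 5 of 6 litters, in ranges that overlapped, with a log2 ratio of 0.17 and a standard error of 0.08 (limma adjusted p = 0.603, exact permutation p = 0.0625). In litter 2 both genes had a log2 ratio of 0.56, and without litter 2 the ratios were 0.13 for Taldo1 and 0.09 for Pgd. Taldo1 was no longer past the unadjusted threshold without litter 2, 4, 5 or 6, without the litter block, without the trend of eBayes, or with a covariate from Y-linked genes, and after median-ratio rescaling it was no longer higher in all 6 litters. G6pdx, the first and rate-limiting enzyme of the pathway, had a log2 ratio of 0.03 (95% confidence interval -0.11 to 0.16).

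TCA cycle members stood lower than those of lower glycolysis. Of 13 tested, 8 had a log2 ratio below 0 and 5 above, and 0 passed in either direction. Cs, citrate synthase (ENSMUSG00000005683, chromosome 10, 128337734 to 128362479), was the highest, with 88.0, 93.0, 103, 90.0, 98.5 and 87.2 TPM in ErbB4myeKO and 93.6, 84.1, 109, 89.9, 102 and 89.5 TPM in ErbB4FF. The groups overlapped in nearly their whole range, with a log2 ratio of -0.02 (95% confidence interval -0.15 to 0.11, limma adjusted p = 0.92). Idh3a, the catalytic subunit of the NAD-dependent isocitrate dehydrogenase, was listed at 0 in 2 ErbB4myeKO and 4 ErbB4FF libraries and nowhere exceeded 3.66 TPM. Isoforms of Idh3a not marked as principal are not in that level. Its log2 ratio of 0.81 was the largest of the 49 members, with a 95% confidence interval of -0.37 to 1.99. The other subunits, Idh3b and Idh3g, lay at 49.1 and 29.3 TPM in ErbB4FF. Citrate leaves mitochondria through Slc25a1 (ENSMUSG00000003528, chromosome 16, 17925223 to 17928219) and is cleaved by Acly. Slc25a1 was 35.0, 35.5, 30.0, 35.1, 79.1 and 38.7 TPM in ErbB4myeKO and 26.2, 26.1, 42.4, 35.9, 63.7 and 44.7 TPM in ErbB4FF. The groups overlapped, with both highest values in litter 5 and a log2 ratio of 0.07 (standard error 0.14, limma adjusted p = 0.883).

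Hif1a (ENSMUSG00000021109, chromosome 12, 73901375 to 73947530) was 193, 193, 182, 205, 42.8 and 111 TPM in ErbB4myeKO and 153, 153, 198, 186, 49.9 and 91.3 TPM in ErbB4FF. Litter 5 was lowest in both groups, and in 4 of 6 litters the ErbB4myeKO library exceeded its littermate. The log2 ratio was 0.12 (95% confidence interval -0.09 to 0.34, limma adjusted p = 0.695). In a list of 21 other genes of the HIF axis, such as its partner Arnt and its hydroxylases, 19 were tested and 0 passed an unadjusted p of 0.05 for genotype in either direction. In a list of 52 other genes of carbon metabolism, 36 were tested, with 0 higher and 1 lower. The lower gene was Pdp1, a phosphatase that activates pyruvate dehydrogenase, at 0.761 ± 0.412 TPM (SD, n = 6) in ErbB4myeKO and 1.38 ± 0.595 TPM (SD, n = 6) in ErbB4FF. It was lower in ErbB4myeKO in 6 of 6 litters, with a log2 ratio of -0.57 (limma adjusted p = 0.603, exact permutation p = 0.0312), at levels around the filter. Pcx, pyruvate carboxylase, was under the filter and not in the fit, at 1.14 ± 0.580 TPM (SD, n = 6) in ErbB4myeKO and 0.510 ± 0.413 TPM (SD, n = 6) in ErbB4FF, and was higher in ErbB4myeKO in 6 of 6 litters (exact permutation p = 0.0312).

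The balance of isozymes can be read within a library, where scaling drops out. It did not differ detectably between genotypes for any of 10 pairs, with exact permutation p between 0.219 and 0.719 before and 0.719 after adjustment over the pairs. The smallest p of this test is 0.0312, so that a single pair could not have passed after adjustment. The linear ratio of Hk2 to Hk1 averaged 1.33 in ErbB4myeKO and 1.04 in ErbB4FF, that of Pfkp to Pfkl 0.377 and 0.385, and that of Idh2 to Idh1 0.511 and 0.564. For Hk3 to Hk1 it went from 0.291 to 16.1 in ErbB4myeKO and from 0.634 to 4.46 in ErbB4FF, a spread larger than the difference between the means. Pkm has 1 transcript in the table, so its splice forms were not told apart here.

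Within litters the glycolytic members tended to move together, but not in the same direction in each litter. Of the 23 members of glucose transport, glycolysis and lactate, 5, 19, 3, 7, 4 and 19 were higher in ErbB4myeKO in litters 1 to 6. Over all genes the share higher in ErbB4myeKO stayed between 45.9% and 52.2%. The median log2 ratio of the 23 was 0.23 in litter 2 and 0.30 in litter 6, and between -0.27 and -0.10 in the other 4 litters. In litter 2 all 5 lower glycolysis members were higher in ErbB4myeKO, with log2 ratios from 0.15 to 0.31, and in litter 5 all 5 were lower, from -0.16 to -0.03. These genes share a pathway and a library and are not replicates of each other, and no test was made of the pattern. Over all genes the within-litter ratio had a Pearson correlation between -0.02 and 0.08 with log2 transcript length, and between -0.25 and 0.13 with GC content.

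**Figure D2:**
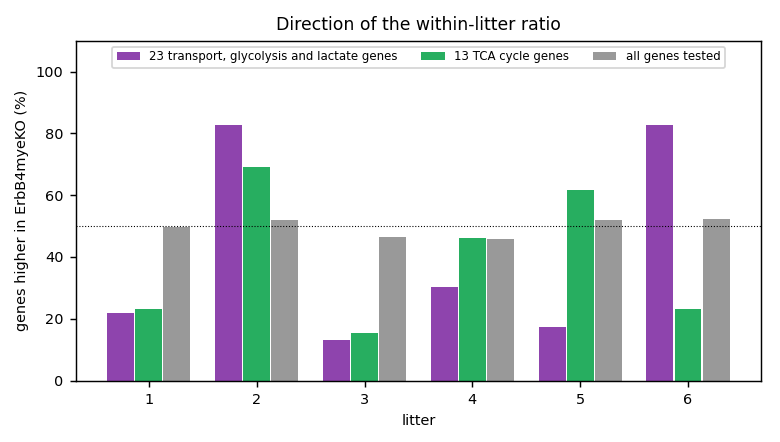
Percentage of genes whose level was higher in ErbB4myeKO than in the ErbB4FF littermate (vertical axis) for each litter (horizontal axis), for 23 members of glucose transport, glycolysis and lactate, 13 TCA cycle members and all 8780 genes tested, with a dotted line at equal shares. Purple bars stand at 82.6% in litters 2 and 6 and at 30.4% or less in the others, while grey bars stay between 45.9% and 52.2%.

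The TCA cycle members did not follow the same litters throughout. Of 13, 3, 9, 2, 6, 8 and 3 were higher in ErbB4myeKO in litters 1 to 6, so that in litter 6, where 19 of those 23 were higher, 9 TCA members were lower. Pentose phosphate members were higher in 4, 5, 4, 4, 4 and 3 of 6.

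**Figure D3:**
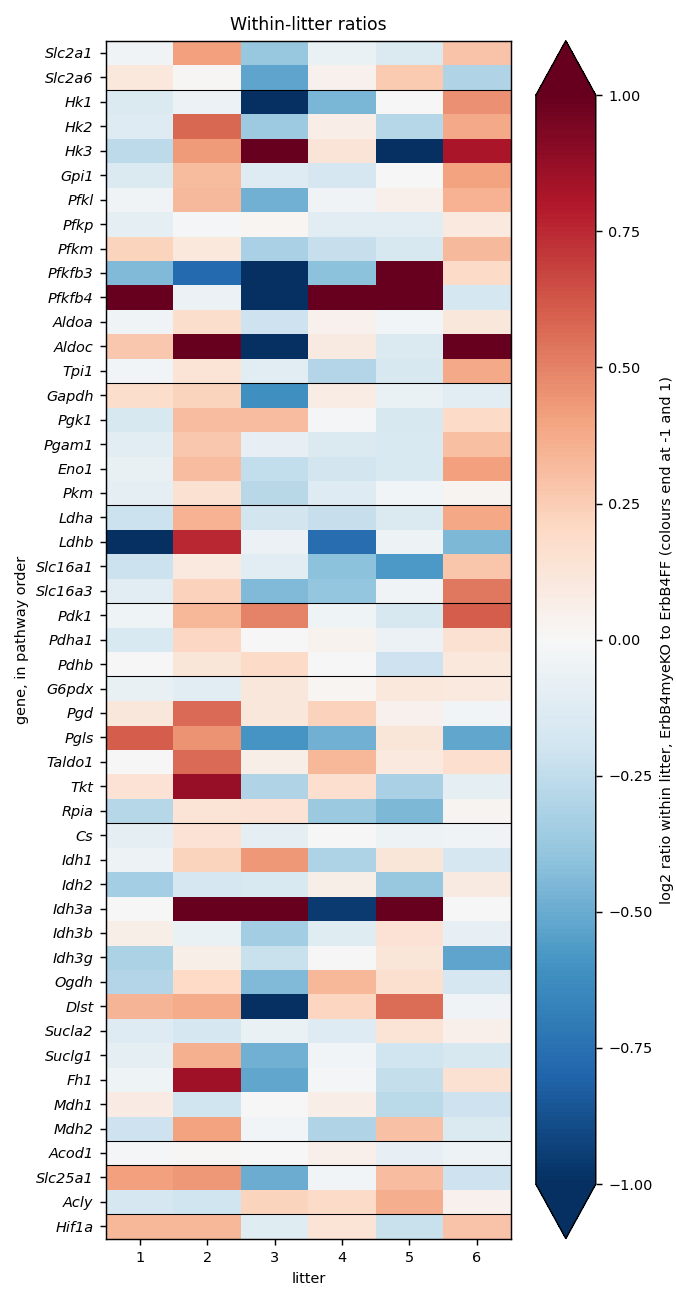
Heat map of the log2 ratio of ErbB4myeKO to ErbB4FF within each litter (columns) for 49 members in pathway order (rows), with red for higher and blue for lower in ErbB4myeKO and colours that end at -1 and 1. Columns 2 and 6 are mostly red over the glycolytic rows, the other columns mostly blue, and the row of Acod1 is pale in every litter.

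More members differed between litters than between genotypes. In the same fit, 29 of 49 members (59.2%) passed an adjusted p of 0.05 for litter, beside 44.9% of all genes. With a covariate from Y-linked genes 3 of 49 passed, beside 9.53% of all genes. That covariate was close between littermates and nearly the same as a split of litters, so it overlaps with the litter terms under test. The fit with it therefore cannot decide whether litter differences are more frequent among members than among all genes. Litter 5 held the highest mean for 23 members and the lowest for 8, a count that was not made over all genes. Against the mean of the other litters, 36 of 49 members were higher in litter 5, beside 4628 of 8780 genes. Without litter 5, 10 of 48 members (20.8%) still passed, beside 11.5% of all genes. They were Hif1a, Pfkfb3, Pfkp, Slc16a1, Pgd, Taldo1, Idh1, Idh2, Mdh1 and Mdh2.

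In litter 5 members lay apart from the other litters in both directions, also within roles, and the genes given here were named after their values were seen. Against the mean of the other litters on the log2 scale, Hif1a was at -1.79, Slc2a1 at -1.25, Hk2 at -0.89, Hk3 at -2.69, Pfkfb3 at -4.04, Dlst, a subunit of 2-oxoglutarate dehydrogenase, at -1.66 and Acod1 at -0.46. Going the other way, all 5 lower glycolysis members were higher in litter 5, with a median of 0.49, as were Tpi1 at 0.82, Ldha at 0.67, Slc25a1 at 1.03 and Pgls, the lactonase of the pentose phosphate pathway, at 1.42. Of the 4 members whose upstream letters are shown, Hif1a and Hk2 were low in litter 5 and Ldha and Pgk1 were high. The part of the core in these levels was not tested. Both littermates lay apart from the other litters, as Hk3 was 18.7 and 40.9 TPM in litter 5 and between 90.5 and 394 TPM in the other 10 libraries.

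**Figure D4:**
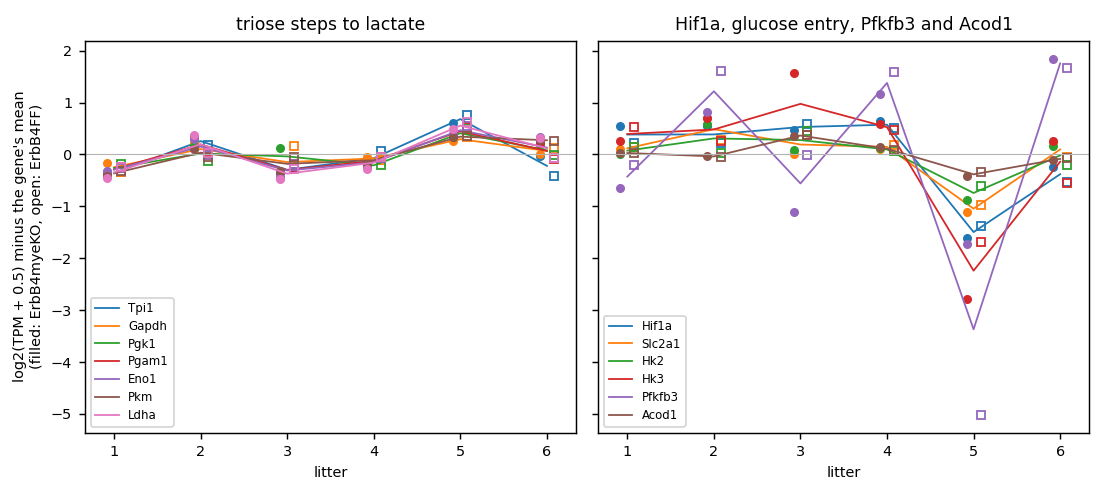
Level of 13 members by litter as log2(TPM + 0.5) minus the mean of the gene, for ErbB4myeKO (filled circles) and ErbB4FF (open squares), with lines through the mean of each litter. In litter 5 the genes from Tpi1 to Ldha (left) lie above 0 and Hif1a, Slc2a1, Hk2, Hk3, Pfkfb3 and Acod1 (right) lie below 0 in both genotypes.

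Transcript length moved with the level in litter 5. Over all genes the median of litter 5 minus the other litters was 0.71 for transcripts under 1500 bases, 0.21 for those of 1500 to 3000 bases and -0.39 for those over 3000 bases. For the members it was 0.51, 0.48 and -0.08 in the same classes. The Pearson correlation with log2 length across genes, which are not independent, was -0.48 over all 8780 genes and -0.49 over the 49 members. In litter 6 it was -0.27 over all genes and -0.002 over the members, and in litters 1 to 4 between 0.18 and 0.35 over all genes and between 0.08 and 0.45 over the members. Of 14 members over 3000 bases, 7 (50%) were higher in litter 5, beside 29.1% of all genes in that class. Among them were Pdk1 (5185 bases) at 0.43 and Slc16a1 (4426 bases) at 0.36, while Hif1a (4724 bases), Hk2 (5513 bases) and Pfkfb3 (4634 bases) were lower. Of 29 members of 1500 to 3000 bases, 24 (82.8%) were higher, beside 63.1% of all genes. Of 6 members under 1500 bases, 5 (83.3%) were higher, such as Pgls (893 bases), beside 83.8% of all genes. Taldo1 (1229 bases) was lower at -0.36. The table holds the isoforms that APPRIS marks as principal, and these made up 71.4% and 74.7% of the TPM of the litter 5 libraries and between 59.0% and 64.9% of the others. The summed level of 8 M1 markers, of which Acod1 is 1, was also lowest in litter 5, with 11266 and 12523 TPM of ranges that reached 35508 and 37730 TPM, with Il12b, Il1b and Acod1 at their lowest in both groups there. Irf1 (624 and 587 TPM), Cxcl9 (3052 and 2914 TPM), Cd86 (290 and 299 TPM) and Tnf (1429 and 1391 TPM) were not at their lowest in litter 5. The sum of 7 macrophage markers was 2602 and 2708 TPM of ranges that reached 6223 and 7347 TPM, mostly from Cd14 and Adgre1. These and Csf1r and Mertk were at their lowest there in both groups, while Fcgr1 was at 220 TPM in ErbB4myeKO, the highest of its group, and at 250 TPM in ErbB4FF. In the same order, Itgam (90.4 and 125 TPM) was at its lowest in neither group, and Cd68 (418 and 338 TPM) in ErbB4FF alone. The sum of 10 neutrophil markers was 215 TPM in ErbB4myeKO and 185 TPM, the highest of its group, in ErbB4FF. In bulk RNA, fewer cells of a type and less RNA per cell cannot be told apart. The part of length, of marker levels and of sex in the litter differences was not tested, and as the Y-linked genes were near 0 in both littermates of litters 5 and 6 and not in the other litters, sex and the difference of litters 5 and 6 from litters 1 to 4 cannot be told apart.

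**Figure D5:**
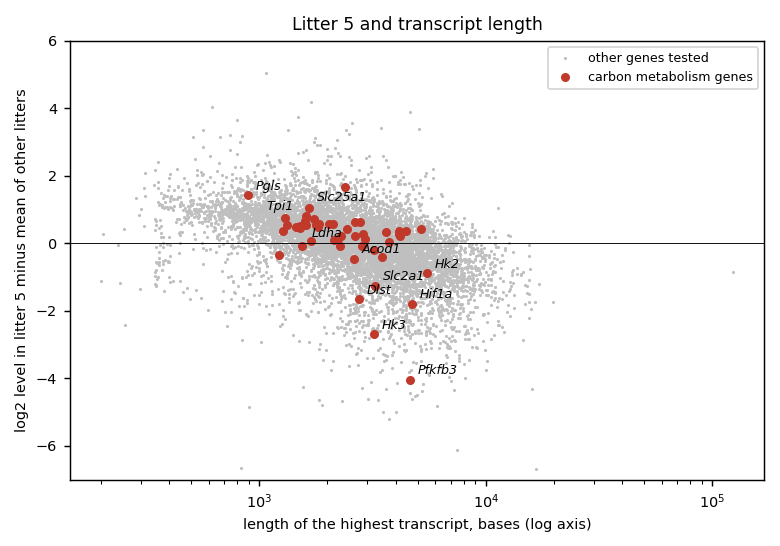
Log2 level in litter 5 minus the mean of the other litters (vertical axis) against the length of the highest transcript of a gene in bases (horizontal log axis), with members in red and the other genes tested in grey. The grey cloud falls with length, and Pfkfb3, Hk3 and Hif1a lie at its lower right while Pgls and Slc25a1 lie above 0 at shorter lengths.

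Beyond litter 5, Idh1 and Idh2, which make NADPH from isocitrate in the cytosol and in mitochondria, differed between litters and were lowest in different ones. Idh1 was highest in litter 6, at 22.9 TPM in ErbB4myeKO and 25.8 TPM in ErbB4FF, and lowest in litter 4, at 7.41 and 9.31 TPM. Idh2 was lowest in litter 2, at 3.25 and 3.71 TPM, and reached 10.7 and 9.96 TPM in litter 6. The log2 ratios by genotype were 0.04 for Idh1 (standard error 0.11) and -0.15 for Idh2 (standard error 0.10).

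Of 8 M1 and 7 macrophage markers, 0 were under 1 TPM in all libraries, although Nos2, the inducible nitric oxide synthase that defines M1 macrophages, was listed at 0 in 3 libraries, both of litter 5 among them, and under 1 TPM in another 3. By contrast, all 7 lymphocyte and 5 erythroid markers were under 1 TPM throughout, with summed levels of at most 0.654 and 0.696 TPM. Sums of 10 neutrophil markers lay between 39.7 and 371 TPM in ErbB4myeKO and between 40.1 and 185 TPM in ErbB4FF, of 6 dendritic cell markers between 9.49 and 35.9 and between 4.52 and 27.7 TPM, of 4 fibroblast markers between 2.78 and 90.4 and between 10.4 and 85.7 TPM, and of 6 proliferation genes between 26.2 and 42.4 and between 17.1 and 48.4 TPM. At an unadjusted p under 0.05 in limma, Il12b, Camp, Xcr1 and Mki67 were higher and Fcgr1 was lower in ErbB4myeKO, each with an adjusted p of 0.603. Tnf and Mertk did not pass it but were higher in ErbB4myeKO in 6 of 6 litters (exact permutation p = 0.0312 for each). The part of these genes in the members' ratios was not tested.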

How the data were processed

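M1-activated BM-Mɸs from 6 ErbB4myeKO and 6 ErbB4FF mice were sequenced as polyA RNA. Groups come from the labels, which also give a batch from A to F. Litters were read from the number in the sample title, and littermates were paired by it, as the paper describes litter-matched pairs. The authors pseudoaligned single-end reads of 75 bases with kallisto and deposited TPM for isoforms that APPRIS marks as principal, 28808 transcripts once 405 repeated lines were dropped. The kallisto version and transcriptome release are not given in the sources used here. For each transcript the authors also deposited a mean over all samples, on the natural log scale, of estimated counts normalized by sleuth, and their own comparison of genotypes (p, q, statistic and ratio), which was not used. The files used here give no depth per library, and precision rests on the spread between litters. The exponential of that deposited mean was between 3.67 for Idh3a and 70518 for Acod1.

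TPM were summed per gene identifier, 0.5 was added, and limma 3.58.1 (R 4.3.3) was run on log2 values by lmFit and eBayes with trend, with terms for litter and genotype. A moderated F test of the litter terms used the same fit. Log2 ratios understate changes of low genes. Single genes were also tested by exact two-sided permutation within litters. On simulated TPM of 8780 genes, the share of planted changes found by the fit was 68% at a log2 change of 1 and 87% at 2, with 9 false among 164 calls. Other steps ran in Python 3.11.15 (pandas 2.3.3, matplotlib 3.10.9, scipy 1.17.1). Shared 31-base words and positions come from GENCODE M21.

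Members and lists were chosen with earlier results of these data known. Values in every sample are given for Acod1, Hif1a, members with an unadjusted p under 0.05 or the same direction in all litters, and the highest member of each role by mean TPM in ErbB4FF. Values of other members were chosen after they were seen. Of other lists, genes with an unadjusted limma p or an exact permutation p under 0.05 are named.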

Additional observations from a re-analysis of the deposited data

Results flagged for a closer look

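With 2 groups of 6 libraries for each of 49 members, 98 groups were searched for a highest or lowest library that stands apart by Dixon's criterion, and 13 were found, where chance gives about 1 in 20 groups (4.9). Of the 13, 11 were in litter 5. The 4.9 takes groups as independent, which genes of the same libraries are not, and the search was not made over all genes. Over all 8780 genes the SD of the log2 difference from the other litters was 1.01 in litter 5 and between 0.48 and 0.81 in the rest.

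Low in litter 5 were Slc2a1 at 41.8 TPM in ErbB4FF (others 79.8 to 107 TPM), Hk3 at 18.7 TPM in ErbB4myeKO (others 159 to 394 TPM), Pfkfb3 at 1.34 TPM in ErbB4FF (others 51.0 to 187 TPM) and Dlst at 7.40 TPM in ErbB4FF (others 22.5 to 41.5 TPM). These are genes of glucose entry, glycolytic control and the TCA cycle.

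High in litter 5 among ErbB4FF libraries were Pgk1 at 1435 TPM (others 889 to 1010.1 TPM), Eno1 at 988 TPM (others 568 to 677 TPM), Ldha at 1745 TPM (others 931 to 1146 TPM) and Pdhb at 55.2 TPM (others 33.7 to 38.5 TPM). High among ErbB4myeKO libraries were Pdhb at 47.9 TPM (others 37.6 to 40.3 TPM), Idh3g at 39.5 TPM (others 22.5 to 24.97 TPM) and Slc25a1 at 79.1 TPM (others 30.0 to 38.7 TPM).

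In litter 2, Sucla2, a succinyl-CoA ligase subunit, was low at 22.2 TPM in ErbB4myeKO (others 25.6 to 27.6 TPM) and Mdh2, the mitochondrial malate dehydrogenase, at 20.3 TPM in ErbB4FF (others 38.2 to 54.2 TPM).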

How the results depend on the processing

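With each litter left out in turn, the genes past an adjusted p of 0.05 for genotype numbered 0 to 1, the members past an unadjusted p of 0.05 numbered 0 to 3 (0 without litter 2, 4 or 6; Dlst, Pfkfb4 and Taldo1 without litter 3, beside 9.68% of all genes; Pfkfb3 alone without litter 5, beside 9.92%), the members in the same direction in all litters left 1 to 3, and the members past the litter test 10 to 30, lowest without litter 5. Pairs of littermates follow the number in the sample title. With no replicate block for litter, 0 members passed the unadjusted threshold, as with eBayes without trend, and with a covariate from Y-linked genes the 1 member was Pgd in place of Taldo1. That covariate, nearly the same as a split of litters, left 3 of 49 members past the litter test, beside 9.53% of all genes, and no filter left 17 of 50, beside 21.7%. Rescaling by median ratios left 0 members with the same direction in all litters. The direction turned for Aldoa with the Y-linked covariate (-0.0048), and among fits that leave a litter out the log2 ratios ran from -0.026 to 0.00072 for Acod1, -0.021 to 0.056 for Aldoa, -0.11 to 0.0596 for Gapdh, -0.085 to 0.038 for Ldha, -0.0021 to 0.18 for Slc25a1 and -0.13 to 0.025 for Slc2a6. Cs, Hif1a, Pdhb, Pgd and Taldo1 kept their sign under the settings tried, and Pfkfb3 turned from 0.13 to -0.51 without litter 5. With a litter left out, Cs ran from -0.053 to -0.0060, Hif1a from 0.082 to 0.19 and Pdhb from 0.0024 to 0.081. Pgd ran from 0.095 to 0.21 and Taldo1 from 0.13 to 0.24. The median log2 ratio of the members turned below 0 without litter 2 (-0.043), without litter 6 (-0.018) and with the Y-linked covariate (-0.0062). With a litter left out the smallest exact p is 0.0625, so no isozyme ratio could have passed.

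Chosen after the data were seen, rescaling, a mean of at least 5 TPM and the highest transcript alone left the per-litter counts of glucose transport, glycolysis and lactate members on the same side in every litter, with 17 to 19 higher in ErbB4myeKO in litter 2, 18 to 19 in litter 6 and at most 8 in the others. TPM keep no depth, so members under about 5 TPM, such as Idh3a and Pfkfb4, have unknown counting error.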
